A study of Mus musculus with 4 samples.

Results

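Germ cell genes that DNA methylation or Polycomb proteins are known to hold down outside the germ line were read in mouse embryonic stem (ES) cells after depletion of Tex10. The list held 10 genes, chosen by name as germ line genes held down by DNA methylation or by the Polycomb complex PRC1.6: Dazl, Ddx4, Mael, Taf7l, Sycp1, Sycp3, Stk31, Tex101, Rhox5 and Tdrkh. A row was found for 9 of them among 22739 named genes, each on a single row. Rhox5 was not analysed here. RNA was sequenced from CCE cells, mouse ES cells of 129SV origin kept on gelatin in serum with leukemia inhibitory factor, in 4 libraries. The shTex10 group (2 libraries) carried short hairpin RNA against Tex10. The shLuci group (2 libraries) carried short hairpin RNA against luciferase, which mouse cells lack. The labels do not say how many hairpin sequences were used in either group, so effects of a hairpin other than through Tex10 cannot be told apart from those of the depletion.

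In the germ line these genes are switched on in primordial germ cells or during spermatogenesis and meiosis. Their promoters are rich in CpG dinucleotides, and in other tissues many of them carry DNA methylation, laid down by the DNMT3 enzymes and copied at replication by DNMT1 with UHRF1. In ES cells a second layer is PRC1.6, a Polycomb complex in which the partners MGA and MAX recognise the E-box sequence and E2F6 with its partner DP1 recognises E2F sites. Most of the genes were not silent in the cells studied. In shLuci the mean level of Dazl lay above that of 79.2% of all named genes, and those of Sycp3, Mael, Sycp1, Stk31 and Ddx4 above that of 65% to 70.8%. Those of Taf7l, Tdrkh and Tex101 lay above that of 57.6%, 50.5% and 45.4%. In the shLuci libraries 11595 and 11533 of 22739 named genes reached 1 FPKM, the unit of level explained below.

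Taf7l and Tex101 were higher in shTex10, and the other 7 germ cell genes did not pass the test in either direction. Taf7l, the germ cell paralog of the TFIID subunit gene Taf7, had a 3.04-fold higher mean FPKM, and Tex101, which encodes a surface protein of germ cells, a 2.48-fold higher one. Levels are in FPKM, which divides fragments by transcript length and by library size. A log2 change is the shTex10 mean of log2(FPKM + 1) minus that of shLuci, a scale that understates changes of low genes, and a gene was called when limma's Benjamini-Hochberg adjusted p was under 0.05 over 11883 genes with a mean of at least 1 FPKM. Of all these genes 51.6% were called, 19.8% higher and 31.8% lower, against 2 of 9 germ cell genes called higher and 0 called lower. Tex101 reached the expression filter only through the shTex10 libraries, where it is high, so its place in that count is not independent of its difference. At an unadjusted p under 0.05 the counts for the germ cell genes were also 2 higher and 0 lower. Their median log2 change was -0.08, beside -0.14 over all genes tested. Because the RNA is from bulk cultures, more cells with a transcript and more transcript per cell cannot be told apart.

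Tex10 itself measured 11.6 and 13.4 FPKM in shTex10 and 77.3 and 82.1 FPKM in shLuci, so that 15.7% of its level was left. Summed FPKM over named genes was 525877.9 and 537691.6 in shTex10 and 613641.9 and 632066.5 in shLuci, and the tables hold no read totals, so counting error is unknown. The balance of calls over all genes moved with the scaling: higher genes made up 38.3% of calls on FPKM as deposited and 63.2% when each library was given an equal sum over named genes (the named-gene rescaling), with the median change of all genes at -0.14 and 0.06. The design text calls the samples biological replicates and tells nothing more of their cultures, so p-values cover the spread between these libraries. With 2 libraries per group, 0.33 is the smallest p that an exact two-sided permutation test allows.

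Taf7l (mm9 chrX:130994654-131011066) had 7.76 and 9.07 FPKM in the shTex10 libraries and 2.55 and 2.98 FPKM in the shLuci libraries. Both shTex10 values lay above both shLuci values, as for 28.3% of all genes tested. The means were 8.42 ± 0.928 FPKM in shTex10 and 2.77 ± 0.305 FPKM in shLuci (SD, n = 2 each), and the log2 change was 1.32 (SE 0.12, limma, Benjamini-Hochberg adjusted p = 0.000728). Taf7l was called in all 16 alternative analyses, with changes of 1.22 to 1.57. The only other row within 30 kb was that of Drp2, which stayed low in every library, at 0.305 and 0.42 FPKM in shTex10 and 0.19 and 0.192 FPKM in shLuci. Relative to the other germ cell genes Taf7l stood seventh in shLuci and, by its mean, second to Dazl in shTex10.

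Tex101 (mm9 chr7:25453030-25457069) had 1.41 and 1.71 FPKM in shTex10 and 0.778 and 0.478 FPKM in shLuci. Both shTex10 values again lay above, as for 28.3% of all genes tested. An unnamed row within 30 kb (mm9 chr7:25482904-25483124) had 13.8 and 11.6 FPKM in shTex10 and 8.86 and 8.48 FPKM in shLuci. The other rows within 30 kb measured 0.199 FPKM or less in each library. A link between Tex101 and the unnamed row was not tested. The mean of Tex101 was 1.56 ± 0.216 FPKM in shTex10 and 0.628 ± 0.212 FPKM in shLuci (SD, n = 2 each), and the log2 change was 0.66 (SE 0.13, limma, Benjamini-Hochberg adjusted p = 0.00854). With no filter it was still called (limma, adjusted p = 0.0192), whereas with an equal sum over all rows, unnamed ones included (the all-row rescaling), it was not (adjusted p = 0.144). Without either shTex10 library its mean fell under the filter and no test was made.

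**Figure D1:**
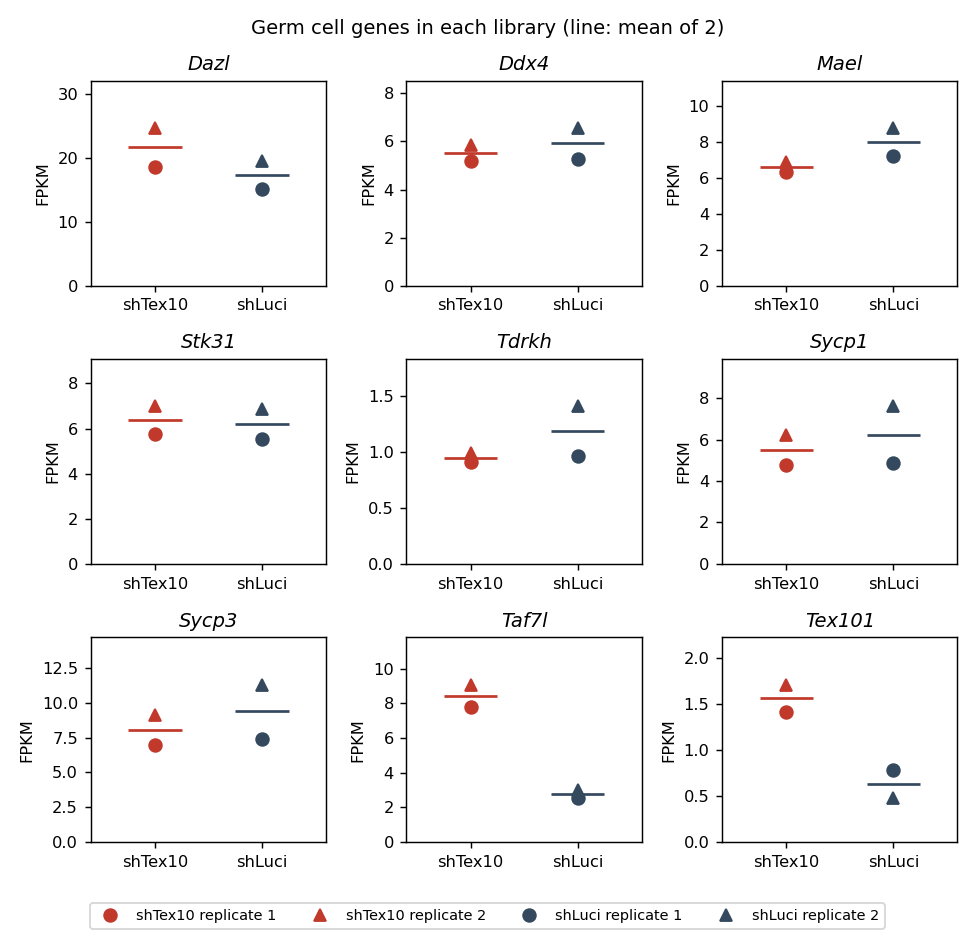
FPKM of the 9 germ cell genes in each library, shTex10 on the left and shLuci on the right of each panel, with circles for replicate 1, triangles for replicate 2 and lines for the means. The shTex10 and shLuci points are apart for Taf7l, Tex101 and Mael, and overlap for the other 6 genes.

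Genes for RNA-binding proteins and germ granule components showed no called change in the fit without a block for replicate number. With that block limma called Dazl higher (adjusted p = 0.00135) and Mael lower (0.0157). The labels do not say what equal replicate numbers share. Dazl (mm9 chr17:50418715-50433326), which encodes an RNA-binding protein that promotes translation in germ cells, had 18.5 and 24.6 FPKM in shTex10 and 15.1 and 19.5 FPKM in shLuci. The groups overlapped, and the log2 change was 0.30 with a 95% interval of -0.13 to 0.74 (limma, Benjamini-Hochberg adjusted p = 0.200). The log2 change of Dazl depended on single libraries. It was 0.47 without shLuci replicate 2 and 0.49 without shTex10 replicate 1. Without shLuci replicate 1 it was 0.13, and without shTex10 replicate 2 it was 0.11. Dazl was the highest of the 9 in every library.

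Ddx4 (mm9 chr13:113388538-113442593), the mouse Vasa gene for an RNA helicase of germ granules, had 5.18 and 5.86 FPKM in shTex10 and 5.28 and 6.55 FPKM in shLuci. The shTex10 values lay within or just under the shLuci range, and the 95% interval of the log2 change was -0.39 to 0.23. Mael (mm9 chr1:168131515-168168875), whose protein acts in piRNA-directed silencing of transposons, had 6.34 and 6.87 FPKM in shTex10 and 7.22 and 8.74 FPKM in shLuci. Both shTex10 values were below both shLuci values, as for 48.1% of all genes tested, while 28.3% had both above and 76.4% lay apart in either direction. The log2 change of -0.24 missed the threshold (SE 0.12, limma, Benjamini-Hochberg adjusted p = 0.143). Under the named-gene rescaling the difference for Mael was -0.04.

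Stk31 (mm9 chr6:49345529-49419878), which encodes a testis protein with a Tudor and a kinase domain, had 5.74 and 6.98 FPKM in shTex10 and 5.52 and 6.88 FPKM in shLuci. These ranges nearly coincide, and the log2 change was 0.03 with a 95% interval of -0.31 to 0.38. Tdrkh (mm9 chr3:94217164-94235608), for a Tudor protein of the mitochondrial surface that takes part in piRNA trimming, had 0.909 and 0.994 FPKM in shTex10 and 0.968 and 1.41 FPKM in shLuci. The log2 change was -0.16 with a 95% interval of -0.47 to 0.15, and the gene reached the filter only through shLuci replicate 2.

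Both genes of the synaptonemal complex, the structure that joins homologous chromosomes in meiosis, overlapped between the groups. Sycp1 (mm9 chr3:102622287-102740133), for the transverse filament protein, had 4.79 and 6.24 FPKM in shTex10 and 4.88 and 7.6 FPKM in shLuci (log2 change -0.14, 95% interval -0.65 to 0.38). Sycp3 (mm9 chr10:87922331-87966715), for a protein of the lateral elements, had 6.95 and 9.1 FPKM in shTex10 and 7.42 and 11.3 FPKM in shLuci (log2 change -0.19, 95% interval -0.71 to 0.34). The highest value of each gene came from shLuci replicate 2 and the next from shTex10 replicate 2. With a block for replicate number limma called Sycp3 lower (adjusted p = 0.0488) and did not call Sycp1 (0.148). Without shLuci replicate 1 the log2 change was -0.41 for Sycp1 and -0.46 for Sycp3, and without shLuci replicate 2 their differences were 0.14 and 0.09. Sycp3 was the only germ cell gene whose locus overlapped another row, that of the phospholipid synthesis gene Chpt1. Both rows have the same coordinates, so the interval given above is not that of Sycp3 alone. Chpt1 had 3.67 and 3.48 FPKM in shTex10 and 5.61 and 5.3 FPKM in shLuci. The treatment of strand is not given in the sources used here, so reads in that overlap cannot be assigned to either gene with certainty.

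**Figure D2:**
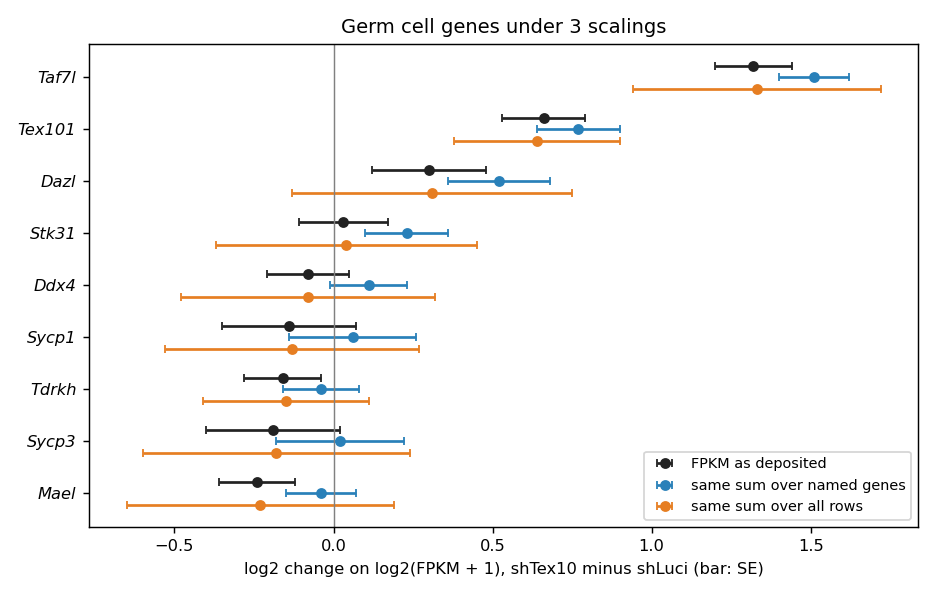
Log2 change of each germ cell gene (horizontal axis, shTex10 minus shLuci on log2(FPKM + 1), bars are the SE from limma) on FPKM as deposited and after 2 rescalings. Taf7l stays right of 0 at 1.32, 1.51 and 1.33, whereas Ddx4, Sycp1 and Sycp3 change sides with the rescaling to the sum of named genes.

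The libraries with replicate number 2 held more RNA of most of these 9 genes in both groups. In shTex10, replicate 2 exceeded replicate 1 for 9 of 9 germ cell genes, with a median ratio of 1.22, and in shLuci for 8 of 9, with a median ratio of 1.25. Tex101 was the exception, at a ratio of 0.614 in shLuci. Over all genes tested, replicate 2 was the higher one for 48.6% in shTex10 and 49.4% in shLuci, with median ratios of 0.995 and 0.998, and for 38.5% in both groups at once. Sycp1 and Sycp3 had ratios of 1.3 and 1.31 in shTex10 and of 1.56 and 1.53 in shLuci. The median ratios of the other meiosis genes were 1.04 in shTex10 and 1.15 in shLuci over 15 tested genes. For 11 piRNA pathway genes they were 1.04 in shTex10 and 1.1 in shLuci. For 4 Rhox cluster genes they were 0.993 in shTex10 and 1.04 in shLuci, and for 9 germ cell specification genes 1.03 and 0.972. For 14 PRC1.6 subunit genes they were 1.08 in both groups, and 9 of these had replicate 2 higher in both. Of 6 tested markers of the 2-cell-like ES cell state, described below, 5 did so, at medians of 1.08 and 1.16. For 5 DNA methylation genes the medians were 0.973 and 0.959, with 0 higher in both. Of the 7 genes that did not pass the test, the gap between replicates exceeded the gap between the group means for 5 in shTex10, Mael and Tdrkh being the exceptions, and for 7 in shLuci. The test itself sets the group gap against the spread of replicates, so these counts are no separate result.

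By level, which FPKM allows to be compared between genes, the list spanned a wide range. In shTex10 the means ran from Dazl (21.6 FPKM) through Taf7l (8.42), Sycp3 (8.02), Mael (6.60), Stk31 (6.36), Sycp1 and Ddx4 (5.52 each) to Tex101 (1.56) and Tdrkh (0.951). In shLuci they ran from Dazl (17.3 FPKM) through Sycp3 (9.38), Mael (7.98), Sycp1 (6.24), Stk31 (6.20), Ddx4 (5.92) and Taf7l (2.77) to Tdrkh (1.19) and Tex101 (0.628). Neighbours from Sycp3 to Ddx4 overlapped in shLuci, so their order there is not resolved. In shTex10 Taf7l and Sycp3 overlapped, as did neighbours from Mael through Stk31 and Sycp1 to Ddx4, so those orders are not resolved either. Summed over the 9 genes, the level was 57.6 and 71.4 FPKM in shTex10 and 49.7 and 65.5 FPKM in shLuci, sums that overlap.

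Most promoters of the list were rich in CpG and held an E-box. The genes were chosen as held down by DNA methylation or PRC1.6, to which both traits relate, so neither trait is independent of the choice. RefSeq promoter windows of 300 bases (GRCm38.p6, from 250 bases before the start site to 50 after it) were found for all 9 genes, 10 windows in all, as Stk31 has 2 start sites. They hold 15 to 38 CpG dinucleotides with a median of 24.5, against a median of 7 over 32851 promoter windows of the mouse genome. The 6-letter E-box CACGTG, which reads the same on both strands, lies in the windows of 6 of the 9 genes (66.7%), against 8.09% of 27025 genes with a window. Of genes with a window of 15 to 38 CpG dinucleotides 11.9% hold it. Of the 14 other piRNA pathway genes with a window 42.9% hold it (median 19 CpG per window), and of the 21 other meiosis genes with a window 19.0% (median 18). The window of Rhox5, the listed gene without a row, holds 5 CpG dinucleotides and no E-box, unlike most of the list. The E2F-type letters TTCCCGC, read on either strand, lie in the windows of Ddx4 and Sycp3, 2 of the 9 genes, and overlap no E-box in them. They lie in windows of 5.29% of all genes and of 10.5% of genes with a window of 15 to 38 CpG dinucleotides. Of the 21 other meiosis genes with a window 42.9% hold them. A run of letters in a window does not show that a protein binds there. The E-boxes are shown with 10 bases on either side, written 5′ to 3′ along the gene, with the E-box in capitals and the position of its first letter relative to the start site.
Taf7l, position -49, chrX:134476524-134476549, minus strand: cctcttatacCACGTGacagaactcg
Ddx4, position -29, chr13:112652324-112652349, minus strand: cgtccgcccgCACGTGcagccgttta
Mael, position -223, chr1:166238952-166238977, minus strand: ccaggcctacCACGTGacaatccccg
Sycp1, position -94, chr3:102936179-102936204, minus strand: gagaacccggCACGTGggaagggaaa
Sycp3, position -64, chr10:88459513-88459538, plus strand: cgttggctccCACGTGagaacgggca
Sycp3, position -43, chr10:88459534-88459559, plus strand: gggcatggagCACGTGctaggaggcg
Stk31, position -55 from its first start site, chr6:49395474-49395499, plus strand: gccggccaccCACGTGaccagggctg

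The 2 genes that were called differ in this respect, since the window of Taf7l holds the E-box and that of Tex101 does not. Of the 7 genes that were not called, Ddx4, Mael, Sycp1, Sycp3 and Stk31 hold it and Dazl and Tdrkh do not. No test was applied to this division. The whole windows of the called genes, and of Dazl as the most abundant gene without a call, are shown with each CpG and each E-box in capitals.
Taf7l, chrX:134476441-134476740, minus strand: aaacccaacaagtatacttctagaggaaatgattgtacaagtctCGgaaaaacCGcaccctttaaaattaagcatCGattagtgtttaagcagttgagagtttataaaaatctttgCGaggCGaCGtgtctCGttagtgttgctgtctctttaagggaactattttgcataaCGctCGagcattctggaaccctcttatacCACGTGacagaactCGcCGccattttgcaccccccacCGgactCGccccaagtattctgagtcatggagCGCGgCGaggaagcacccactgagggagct
Tex101, chr7:24672001-24672300, minus strand: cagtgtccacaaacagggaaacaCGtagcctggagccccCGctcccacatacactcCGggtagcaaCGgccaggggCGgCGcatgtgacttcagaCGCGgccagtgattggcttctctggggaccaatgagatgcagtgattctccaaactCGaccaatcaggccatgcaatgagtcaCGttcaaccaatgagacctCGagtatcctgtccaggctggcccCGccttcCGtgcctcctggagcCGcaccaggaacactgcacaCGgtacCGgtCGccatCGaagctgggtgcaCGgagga
Dazl, chr17:50293571-50293870, minus strand: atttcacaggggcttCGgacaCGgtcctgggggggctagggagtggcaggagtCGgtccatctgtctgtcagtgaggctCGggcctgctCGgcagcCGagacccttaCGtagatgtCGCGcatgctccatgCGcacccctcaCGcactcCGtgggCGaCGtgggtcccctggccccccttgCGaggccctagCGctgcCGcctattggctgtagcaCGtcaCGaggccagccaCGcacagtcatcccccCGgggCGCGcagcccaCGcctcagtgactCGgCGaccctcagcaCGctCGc
These windows hold 17 CpG dinucleotides in Taf7l, 19 in Tex101 and 28 in Dazl. The called genes thus lie near the lower end of the list's range, where Sycp3, with 15 and no call, also lies.

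**Figure D3:**
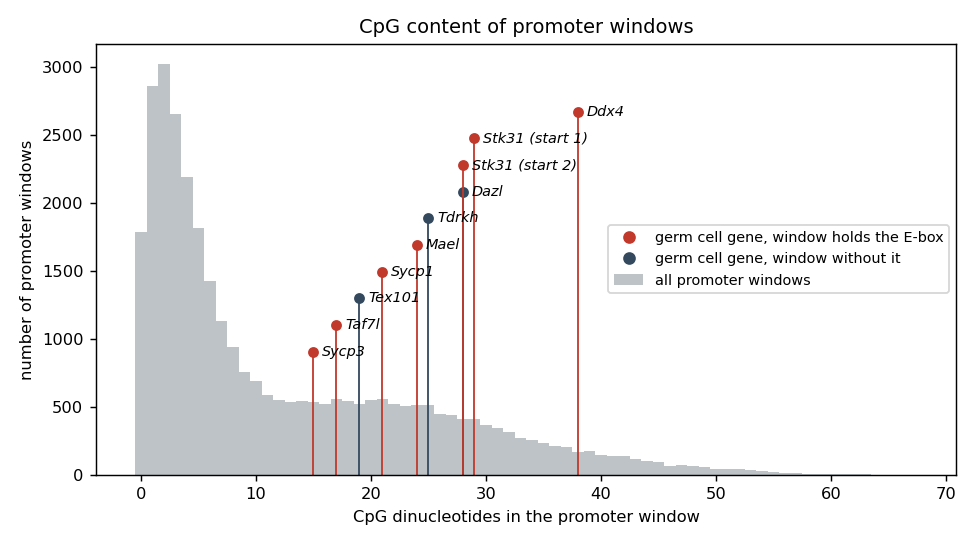
Number of RefSeq promoter windows (grey bars, vertical axis) by the CpG dinucleotides they hold (horizontal axis), with the windows of the 9 germ cell genes as stems, red where the window holds the E-box and dark where it does not. Stem heights only make room for the names, and the stems stand between 15 and 38, right of the median of 7 over all windows.

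Other genes of the germ line went in both directions. The piRNA pathway list, whose proteins make the small RNAs that silence transposons in germ cells, had 2 genes higher, 2 lower and 7 not called among 11 tested of 18, at a median log2 change of -0.18, where 19.8% of all genes were called higher and 31.8% lower. The counts were 1 higher and 3 lower under quantile normalization and 1 higher and 0 lower under the all-row rescaling, and the median was 0.03 under the named-gene rescaling. With no filter all 18 were tested, and 4 were called higher and 2 lower at a median of 0.03. Over all 19307 genes tested without a filter, 3091 were called higher and 3632 lower at a median of -0.01. Tdrd7, for a Tudor protein of germ granules, rose to 2.81 and 2.58 FPKM in shTex10, against 0.93 and 0.777 FPKM in shLuci (log2 change 1.00, SE 0.10, limma, Benjamini-Hochberg adjusted p = 0.000947). Tdrd5, also for a Tudor protein, rose by 0.39, a call lost under quantile normalization (limma, adjusted p = 0.141), under the all-row rescaling (0.527) and without shLuci replicate 1 (0.0501), and both genes reached the filter only through shTex10. Mov10l1, for a helicase needed to process piRNA precursors, fell to 1.6 and 1.46 FPKM in shTex10, against 3.23 and 3.81 FPKM in shLuci (log2 change -0.83, SE 0.11). Tdrd12, the most abundant gene of that list, fell to 32.8 and 36.3 FPKM in shTex10, against 48.9 and 53.9 FPKM in shLuci (log2 change -0.56, SE 0.10). The calls of Mov10l1 (limma, adjusted p = 0.105) and Tdrd12 (0.620) were lost under the all-row rescaling. Their log2 changes stayed at -0.83 and -0.56 there, with larger SEs of 0.32 and 0.44.

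Meiosis genes were split more widely than the germ cell genes above. Of 25 listed, 15 were tested, 4 rose, 7 fell and 4 were not called, at a median log2 change of -0.33, against the same shares of 19.8% higher and 31.8% lower over all genes. Under the all-row rescaling 4 were called higher and 2 lower. With no filter all 25 were tested, and 6 were called higher and 8 lower at a median of -0.04. Rec8, for the meiotic cohesin subunit, rose 8.49-fold, to 14.5 and 12.5 FPKM in shTex10, against 1.87 and 1.31 FPKM in shLuci (log2 change 2.49, SE 0.14, limma, Benjamini-Hochberg adjusted p = 0.000225). Meioc, for a regulator of meiotic prophase that the tables list under its older symbol Gm1564, rose to 11.5 and 13.8 FPKM in shTex10, against 3.36 and 3.93 FPKM in shLuci (log2 change 1.55, SE 0.12). Hormad1, for a protein of the meiotic chromosome axis, had 49.3 and 75.2 FPKM in shTex10 and 18.7 and 27.0 FPKM in shLuci (log2 change 1.40, SE 0.25). Tex15 was the other gene that rose (log2 change 1.16, SE 0.12).

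Hormad2, the paralog of Hormad1, moved the other way, with 2.68 and 2.61 FPKM in shTex10 and 9.28 and 10.0 FPKM in shLuci (log2 change -1.55, SE 0.09, limma, Benjamini-Hochberg adjusted p = 0.000273). Syce2, for a central element protein of the synaptonemal complex, fell to 21.5 and 22 FPKM in shTex10, against 59.0 and 67.6 FPKM in shLuci (log2 change -1.50, SE 0.10). The other genes that fell were Smc1b (-1.02), Dmc1 (-0.77), Tex11 (-0.74), Trip13 (-0.67) and Stra8 (-0.33), all of which lost their calls under the all-row rescaling, Stra8 also without any 1 of the 4 libraries. Among 4 tested genes of the Rhox cluster on the X chromosome 3 rose, Rhox13 by 0.70, Rhox6 by 0.57 and Rhox9 by 0.42 on the log2 scale, the call of Rhox9 being lost without shLuci replicate 1. Among 9 tested genes of germ cell specification 2 rose and 4 fell. Beside the counts of both lists, 19.8% of all genes were called higher and 31.8% lower. Tfap2c rose to 27.2 and 28.0 FPKM in shTex10, against 8.21 and 8.30 FPKM in shLuci, and Dppa3 rose by 1.26, while Prdm14 fell by 1.65 and Kit by 0.74 on the log2 scale.

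**Figure D4:**
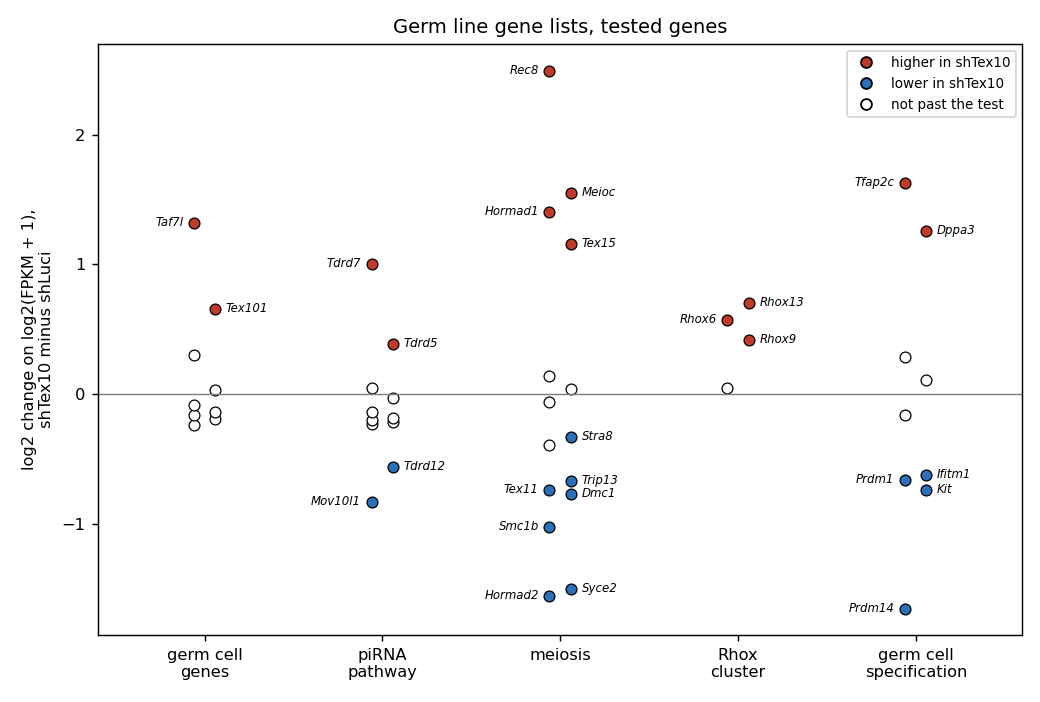
Log2 change (vertical axis, shTex10 minus shLuci on log2(FPKM + 1)) of each tested gene in 5 germ line lists, red where called higher, blue where called lower and white where not past limma's test at an adjusted p of 0.05. Called genes lie on both sides of 0 in the piRNA, meiosis and specification lists, from Rec8 at 2.49 to Prdm14 at -1.65.

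Most transcripts of the silencing machinery were lower in shTex10. Of 14 PRC1.6 subunit genes 9 fell, 1 rose and 4 were not called, at a median log2 change of -0.49, beside -0.14 over all genes. Of all genes tested 31.8% were called lower and 19.8% higher. With a mean of at least 5 FPKM the medians were -0.6 for PRC1.6 genes and -0.2 for all genes. Mga, for the DNA-binding scaffold of the complex, fell to 21.3 and 23.0 FPKM in shTex10, against 33.9 and 39.0 FPKM in shLuci (log2 change -0.69, SE 0.11, limma, Benjamini-Hochberg adjusted p = 0.00402). Pcgf6, for the subunit that defines PRC1.6, fell by 0.67 and Tfdp1, for DP1, by 1.12 on the log2 scale, and Wdr5 and Hdac1 fell by 0.71 and 0.75. E2f6 was the subunit gene that rose, to 15.9 and 16.8 FPKM in shTex10, against 10.6 and 11.4 FPKM in shLuci (log2 change 0.54, SE 0.09). Fewer PRC1.6 genes were called lower after the named-gene rescaling (6, with a median of -0.26) and under quantile normalization (6, with a median of -0.30). Under the all-row rescaling 0 were called in either direction, with a median of -0.48. The all-row rescaling left calls for Tdrd7, Rec8, Meioc, Hormad1, Tex15, Hormad2, Syce2, Tfap2c, Dppa3 and Prdm14 among the other genes named. It removed those of all the Rhox and silencing genes named.

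Of 5 DNA methylation genes 3 fell and 1 rose, where 31.8% of all genes were called lower and 19.8% higher. The same shares stand beside the counts for histone H3 methylation and DNA demethylation genes below. Uhrf1, needed to maintain methylation at replication, fell to 59.0 and 52.0 FPKM in shTex10, against 142.4 and 115.2 FPKM in shLuci (log2 change -1.19, SE 0.13, limma, Benjamini-Hochberg adjusted p = 0.00146). Dnmt3l, for the cofactor of the DNMT3 enzymes, rose to 442.0 and 406.3 FPKM in shTex10, against 267.0 and 245.2 FPKM in shLuci (log2 change 0.73, SE 0.10). Dnmt3b fell by 0.44 and Dnmt1 by 0.30 on the log2 scale, and both calls were lost under quantile normalization and the named-gene rescaling, that of Dnmt1 also without any 1 library. Dnmt3a was not called (log2 change -0.25, limma, Benjamini-Hochberg adjusted p = 0.0524). Of 6 genes for methylation of histone H3 at lysine 9, the genes Ehmt2 (-0.89), Trim28 (-0.82), Setdb1 (-0.66) and Ehmt1 (-0.61) fell and Atf7ip rose by 0.37, a call lost without any 1 library. Under quantile normalization Trim28 was not called (log2 change -0.35, limma, adjusted p = 0.142). Of 4 DNA demethylation genes Tet1, Tet2 and Tdg fell, by 0.89, 0.87 and 0.60. These are RNA levels. DNA methylation and protein levels were not measured here, and the part of these genes in the values of Taf7l and Tex101 was not tested.

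**Figure D5:**
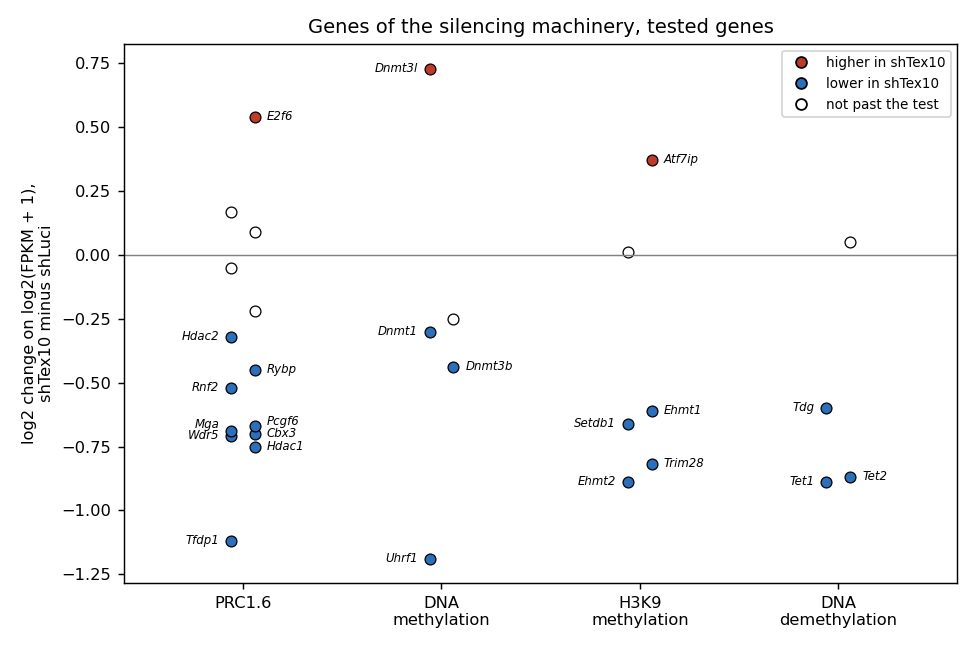
Log2 change (vertical axis, shTex10 minus shLuci on log2(FPKM + 1)) of tested genes for PRC1.6, DNA methylation, methylation of histone H3 at lysine 9 and DNA demethylation, with the colours for calls at an adjusted p of 0.05 from limma. Most points lie below 0, down to Uhrf1 at -1.19, and Dnmt3l, E2f6 and Atf7ip are the points called higher.

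Markers of other cells and states were read in the same libraries. Their counts of calls stand beside 19.8% called higher and 31.8% called lower over all genes tested. The 8 spermatid markers all measured 0.171 FPKM or less in each library, with Prm2 and Tnp1 at 0 throughout, and summed to 0.283 and 0.248 FPKM in shTex10 and 0.268 and 0.197 FPKM in shLuci. Markers of gonadal somatic cells summed to 7.34 and 8.13 FPKM in shTex10 and 7.38 and 7.85 FPKM in shLuci over 7 genes, with Fshr at 0. ES cell markers were abundant and lower, with 5 of 6 called, at 1596.8 and 1538.8 FPKM in shTex10 and 2535.5 and 2422.4 FPKM in shLuci in sum, and 0 of 6 called under the all-row rescaling. Markers of the 2-cell-like state, a rare ES cell state that resembles the early embryo, rose in 6 of 6 tested genes, at 432.7 and 472.7 FPKM in shTex10 and 54.8 and 63.3 FPKM in shLuci in sum over 8 genes, with Tcstv1 and Tcstv3 at 0. Trophectoderm markers rose in 4 of 4 tested genes and summed to 30.8 and 29.0 FPKM in shTex10 and 12 and 11 FPKM in shLuci over 6 genes, with 2 of 4 called under the all-row rescaling and Tfap2a past the filter only through shTex10. Primitive endoderm markers summed to 2.69 and 2.47 FPKM in shTex10 and 2.45 and 1.74 FPKM in shLuci, and fibroblast markers to 41.0 and 29.6 FPKM in shTex10 and 35.4 and 26.9 FPKM in shLuci. The part of the 2-cell-like and trophectoderm markers in the values of Taf7l, Tex101, Tdrd7 and Rec8 was not tested.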

How the data were processed

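Libraries of poly(A) RNA (4) came from a TruSeq kit and were sequenced from one end, per the labels' protocols. The deposited values are FPKM per library, given by the authors without pooling of replicates. Cufflinks 2.1.1, TopHat2 2.0.10, Bowtie2 2.1.0 and genome build mm9 appear per the submitters' processing notes; what each did, the annotation and any use of strand are not given here in the sources. Depth is unknown. Unnamed rows took 56.3% to 71.6% of summed FPKM and were left out, and rows that share a name (445 names) were summed, which gave 22739 genes.

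Genes with a mean of at least 1 FPKM (11883) were tested with limma 3.58.1 (R 4.3.3) after log2(FPKM + 1), with a trended eBayes variance and Benjamini-Hochberg adjustment over all genes tested, after a check on simulated data. Members and lists were chosen with earlier results of these data known. Alternatives were pseudocounts of 0.1 and 0.5, no filter, a mean of at least 5 FPKM, quantile normalization, median scaling, equal sums over named genes or all rows, a block for replicate number, robust or untrended eBayes, taking the highest row of a shared name and leaving out each library.

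The text names Tex10, all members and, for the other lists, genes from among the up to 4 with the smallest p, not all of which appear. Named besides these after their values were seen were Hormad1, Tex15, Smc1b, Dmc1, Tex11, Trip13, Stra8, E2f6, Pcgf6, Dnmt3a, Atf7ip, Drp2, Chpt1 and marker genes at 0. List genes were matched by symbol or, for 3 genes, by an older symbol in RefSeq's table. Promoter windows are from RefSeq, build GRCm38.p6, and their coordinates are not those of the mm9 loci.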

Additional observations from a re-analysis of the deposited data

How the results depend on the processing

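Taf7l kept its call in 16 of 16 alternatives, with log2 changes of 1.22 to 1.57. The count of germ cell genes called higher was 2 and became 1 with a mean of at least 5 FPKM, where Tex101 was not tested, and 1 under the all-row rescaling, where Tex101 lost its call. The count called lower was 0 and became 2 with the replicate number as a block. Leaving out single libraries gave 1 to 3 called higher and 0 to 2 called lower. Ddx4, Sycp1 and Sycp3, none of them called, changed sign under the named-gene rescaling, to 0.11, 0.06 and 0.02, and with single libraries left out ran from -0.21 to 0.05, from -0.41 to 0.14 and from -0.46 to 0.09. Stk31 ran from -0.10 to 0.17 with single libraries left out. Tdrkh without shLuci replicate 2 and Tex101 without either shTex10 library gave no value, since their means fell under the filter. Over all genes, 2350 were called higher and 3779 lower; the counts were 1292 higher and 3120 lower with a mean of at least 5 FPKM, 3269 and 1901 under the named-gene rescaling, 662 and 239 under the all-row rescaling and 3210 and 5709 with the replicate block. Causes of these shifts were not tested, apart from the filter where fewer genes were tested. The all-row rescaling divides by sums that hold the unnamed rows. Their share was 56.3% and 71.6% in shLuci replicates 1 and 2, and 70.8% and 68.8% in shTex10. Under that rescaling the log2 changes of Taf7l and Dazl were 1.33 and 0.31, beside 1.32 and 0.30 as deposited. Their SEs were 0.39 and 0.44, beside 0.12 and 0.18. The replicate numbers are not said to mark a shared culture or day. Deviations of replicate 1 from the group means correlated at 0.33 across genes between the groups, a hint from the data only. With the block, Dazl (adjusted p = 0.00135, higher), Mael (0.0157, lower) and Sycp3 (0.0488, lower) passed limma's test besides Taf7l and Tex101, and the piRNA pathway list had 2 genes higher and 6 lower. When a library was left out, its group had a lone sample, so limma's variance came from the other group and from all genes together. Without shLuci replicate 1 the SE was 0.17 for Ddx4, Sycp1 and Stk31 alike. With all 4 libraries their SEs were 0.13, 0.21 and 0.14. Calls in the fits without a library therefore say little of a gene's own spread.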
